A study of Mus musculus with 46 samples.

Results

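The response of Dicer-deficient whole-brain microglia to lipopolysaccharide (LPS) was examined 6 h after an intraperitoneal injection of 1 mg/kg, by comparing 4 libraries made after LPS (numbered 35, 36, 37 and 38) with 3 steady-state libraries (5, 11b and 12), which are also labelled PBS. These 7 libraries, chosen by their labels, are among 46 in the series. The Dicer-deficient mice were Cx3cr1CreER:Dicerfl/-, in which a tamoxifen-inducible Cre is made under the control of the Cx3cr1 locus, active in microglia and other mononuclear phagocytes. Control mice were Cx3cr1CreER:Dicer+/-, so all groups carried the Cre and lacked 1 Dicer allele throughout the body, and no group had intact Dicer on both chromosomes. All mice were 10 to 12 weeks old. Microglia were sorted from fresh brain as CD45intCD11b+F4/80+Ly6C-Ly6G- cells, and poly(A) RNA was captured with oligo(dT) and sequenced in bulk. The comparison asks how the inflammatory response of adult microglia runs when Dicer has been removed. The control libraries used beside it were 4 after LPS (17, 31, 32 and 33) and 3 at steady state (7, 8 and 9), and hippocampal Dicer-deficient microglia gave 2 after LPS (18 and 20) and 3 at steady state (4, 5 and 6). The series text gives 3 LPS libraries for the Dicer-deficient whole brain where the labels give 4, and all 4 were used. Nothing in the labels says whether libraries of a group came from separate mice, so each p-value reflects library-to-library spread, part of which may be technical.

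Dicer cuts hairpin precursors into mature microRNAs, which are loaded into Argonaute proteins and reduce the output of mRNAs that match the microRNA seed. LPS is recognised by Tlr4 with Cd14. Its signal runs through Myd88 to the NF-kB transcription factors and through Ticam1 to interferon regulatory factors. NF-kB drives cytokines, chemokines and its own inhibitors, whereas secreted type I interferon acts through Stat and Irf factors on interferon-stimulated genes. Among the microRNAs known to shape this response are miR-155, which rises in activated macrophages, and miR-146a, an NF-kB-induced brake on the same pathway. Their mature sequences (RefSeq, GRCm38.p6) are given because a list of their known targets is described further on, with the seed, bases 2 to 8, in capitals.
mmu-miR-155-5p: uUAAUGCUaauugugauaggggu
mmu-miR-146a-5p: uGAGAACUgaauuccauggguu
MicroRNAs themselves are not measured by these libraries.

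Promoters of 4 genes that carry the main results are printed first, each from 250 bases before to 50 bases after a RefSeq start site (GRCm38.p6). Nfkb2 encodes the precursor of the NF-kB subunit p52, Tnip1 an inhibitor of NF-kB signalling that works with the ubiquitin editor A20, and Nfkbie the cytoplasmic inhibitor IkB epsilon. Isg15 encodes a ubiquitin-like protein induced by interferon. Capitals mark matches on either strand to the kB consensus in the first 3 sequences, and to the core of the interferon-stimulated response element (ISRE), a GAAA repeated after any 2 bases, in Isg15; matches may overlap one another.
Nfkb2 (chr19:46304487-46304786, + strand): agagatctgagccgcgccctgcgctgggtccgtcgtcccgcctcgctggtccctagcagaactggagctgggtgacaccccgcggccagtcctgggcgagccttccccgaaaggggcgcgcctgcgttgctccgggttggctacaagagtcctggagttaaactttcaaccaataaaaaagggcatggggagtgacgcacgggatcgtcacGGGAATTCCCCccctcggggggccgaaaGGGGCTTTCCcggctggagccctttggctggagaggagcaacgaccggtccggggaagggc
Tnip1 (chr11:54962891-54963190, - strand): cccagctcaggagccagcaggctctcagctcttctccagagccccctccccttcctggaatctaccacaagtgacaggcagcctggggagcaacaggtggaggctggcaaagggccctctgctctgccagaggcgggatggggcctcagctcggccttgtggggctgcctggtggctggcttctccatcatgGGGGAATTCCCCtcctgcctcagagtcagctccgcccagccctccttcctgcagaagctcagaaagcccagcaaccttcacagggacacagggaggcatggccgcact
Nfkbie (chr17:45555450-45555749, + strand): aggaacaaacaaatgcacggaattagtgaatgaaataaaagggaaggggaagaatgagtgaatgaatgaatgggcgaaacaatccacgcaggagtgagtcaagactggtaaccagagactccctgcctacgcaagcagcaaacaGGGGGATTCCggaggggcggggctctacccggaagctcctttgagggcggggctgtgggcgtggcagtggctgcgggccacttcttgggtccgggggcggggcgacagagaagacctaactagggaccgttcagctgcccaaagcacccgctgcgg
Isg15 (chr4:156200769-156201068, - strand): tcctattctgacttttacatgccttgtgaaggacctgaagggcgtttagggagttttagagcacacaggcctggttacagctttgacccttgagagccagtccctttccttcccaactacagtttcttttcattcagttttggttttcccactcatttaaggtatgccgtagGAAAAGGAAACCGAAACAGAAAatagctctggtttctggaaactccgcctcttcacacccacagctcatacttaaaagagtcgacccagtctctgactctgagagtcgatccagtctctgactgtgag
The ISRE core was found in 3.44% of all 32851 promoters of the table and the kB consensus in 8.46%.

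Library depth was 2694274 to 4573063 reads after LPS and 2593512 to 3615986 at steady state. Across all tested genes the 4 LPS libraries correlated with each other at 0.953 to 0.969 and the 3 steady-state libraries at 0.94 to 0.959, against 0.886 to 0.904 between the groups. LPS library 38 and steady-state library 11b had Xist at 364 and 580, against 0 to 10.1 in the other 5, and the Y-linked Ddx3y at 4.9 and 6.3 against 288 to 550, so sex differed within both groups. All control whole-brain libraries had Ddx3y at 231 to 341, so by this gene sex was not balanced between the genotypes. Library 11b also had lower Gpr34, a lysophosphatidylserine receptor of microglia, than its group (239 against 1039 and 1058) and lower Cx3cr1 (2487 against 5575 and 5330). Among the controls, LPS library 33 stood apart: it correlated at 0.942 to 0.952 with steady-state controls and at 0.914 to 0.924 with the other control LPS libraries, and its Saa3 was 82.2 against 2660 to 2942. Counts in controls are therefore given with and without it. Dicer1 was listed at 74.2, 75.9 and 108 at steady state and at 155, 79.6, 75.7 and 138 after LPS (log2 fold change 0.33 ± 0.26 (SE), limma adjusted p = 0.405). In controls it was at 127, 101 and 132 at steady state and at 120, 115, 83.8 and 110 after LPS. The genotypes thus overlapped in both states. The oligo(dT)-captured reads may lie outside the deleted part of Dicer1, so its level is no check of the genotype.

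After LPS, 1631 of 13423 tested genes rose and 1718 fell in Dicer-deficient microglia (limma on log2(value + 1), Benjamini-Hochberg adjusted p under 0.05), that is 12.2% higher and 12.8% lower. The median change of all tested genes was -0.04 on the log2 scale. At least a 4-fold change was reached by 496 of the genes that rose and by 394 that fell. Values are read counts scaled by 1 factor per library, called levels here, and fold changes are on the log2(value + 1) scale, which understates those of genes with low levels. In bulk RNA of sorted cells, fewer cells with a transcript and less of it per cell cannot be told apart. Where a list below had no member called in 1 direction, at most 1 member had an unadjusted limma p under 0.05 in that direction, and the count-based tests edgeR and DESeq2 called none, except 1 lower in the feedback list (both tools) and 1 lower in the TNF list (DESeq2). The plot of levels in single libraries shows 18 of the genes described below.

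**Figure D1:**
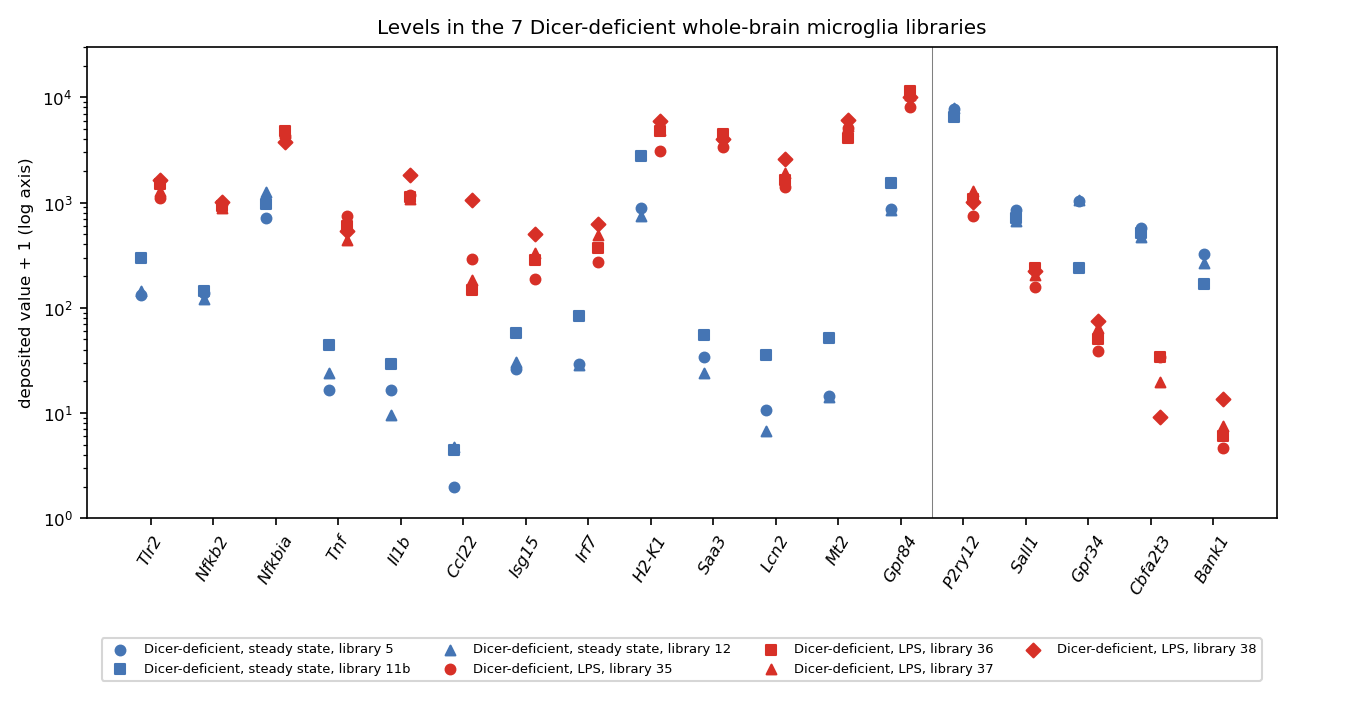
Level + 1 (log axis) of 18 genes in each of the 7 Dicer-deficient libraries, with steady state in blue and LPS in red and 1 symbol per library. The 13 genes left of the line lie higher in all 4 LPS libraries than in all 3 steady-state libraries (Mt2 4058 to 6109 against 13.3 to 50.6), and the 5 genes to its right lie lower (Bank1 3.7 to 12.6 against 167 to 323).

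Mt2, a metallothionein that binds zinc and copper, had the highest fold change by the rule for named genes. It stood at 13.5, 50.6 and 13.3 at steady state and at 5097, 4058, 5382 and 6109 after LPS, a log2 fold change of 7.86 ± 0.87 (adjusted p = 1.12e-05). Library 11b was the highest at steady state. Lrg1, a secreted acute phase glycoprotein, was at 7.7, 20.4 and 7.6 at steady state and at 1688, 1478, 1032 and 975 after LPS (6.75 ± 0.37, adjusted p = 1.16e-08). Lcn2, which binds bacterial siderophores, went from 9.6, 34.4 and 5.7 to 1415, 1640, 1886 and 2603 (7.08 ± 0.62, adjusted p = 1.59e-06). Saa3, a serum amyloid protein, was at 32.8, 54.1 and 22.8 and then at 3354, 4480, 4320 and 4053 (6.83 ± 0.83). The rule that chose these genes required groups without overlap. The other genes among the 12 highest were Adamtsl4 (7.34), the myeloid receptor Trem1 (6.73), fibronectin (Fn1, 6.71), Cd40 (6.55), Cxcr2 (6.54), Ccl22 (6.43), Ikbke (6.41) and Il1b (6.26 on the log2 scale). Of 18 acute phase and metal handling genes, 14 rose and 1 fell, with a median log2 change of 2.72. In controls 11 rose and 1 fell with a median of 1.85, and 12 and 2 with a median of 2.20 without LPS library 33. Haptoglobin (Hp) rose by 4.49 and the zinc importer Slc39a14 by 4.95. Some genes were listed at 0 in every steady-state library. In steady-state library 12, LPS library 38 and control libraries 7, 9 and 17 no gene stood at exactly 1 read, so a 0 there may stand for a single read. Gpr18, a receptor for lipid ligands, reached 47.2 to 152 after LPS. Ifitm1, an antiviral membrane protein, reached 24.2 to 60.2, Cxcl1 18.9 to 54.6, Slfn4 13 to 47.4, and Piwil2, a Piwi-clade relative of the Argonautes, 28.8 to 76.6.

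At the receptors, 5 of 15 Toll-like receptor and co-receptor genes rose and 3 fell. Tlr2, the receptor for bacterial lipoproteins, stood at 132, 296 and 144 at steady state and at 1096, 1496, 1284 and 1619 after LPS (2.93 ± 0.39, adjusted p = 4.9e-05). Its partners Tlr1 and Tlr6 rose by 2.14 and 1.90, and the LPS co-receptor Cd14 by 2.34. Tlr4 itself moved the other way. It fell from 360, 299 and 476 to 188, 176, 164 and 160, with no overlap between the groups (-1.11 ± 0.24, adjusted p = 0.00215). In controls the Tlr4 change was -0.53 with an adjusted p of 0.144, and the difference between the genotypes did not pass (adjusted p = 0.637). Of 21 adaptors and kinases, 4 rose and 2 fell, or 3 and 0 without steady-state library 5. Their median change was 0.02 on the log2 scale, and 12.2% of all genes rose and 12.8% fell, so these counts set the list little apart. The adaptor Myd88 rose by 1.46 and the kinase Map3k8 by 2.23. The non-canonical kinase Ikbke went from 0, 16.9 and 1.9 to 211, 292, 252 and 645. Tab2, an adaptor of the kinase Tak1, fell by 0.56 on the log2 scale.

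NF-kB genes rose in both arms of the pathway, the transcription factor subunits and their inhibitors. Of 11 such genes 8 rose and 1 fell, with a median log2 change of 1.57. Nfkb2 stood at 136, 143 and 121 at steady state and at 977, 921, 884 and 1014 after LPS, a log2 fold change of 2.82 ± 0.23 (adjusted p = 1.3e-06). Both groups were narrow and far apart. Relb, the partner of p52 in the non-canonical pathway, was at 45.3, 136 and 67.6 and then at 428, 589, 487 and 497 (2.72 ± 0.27). Nfkbia, the inhibitor that NF-kB induces within its own feedback loop, was at 717, 961 and 1258 and then at 4261, 4824, 4576 and 3723 (2.18 ± 0.28, adjusted p = 3.7e-05). The nuclear regulators Nfkbiz and Bcl3 rose by 3.90 and 5.49. A feedback list of 21 genes, which hold phosphatases, ubiquitin editors and decoys that limit inflammation, had 16 members higher and none lower, with a median of 2.31. Tnfaip3, the ubiquitin editor A20, went from 47.2, 57.6 and 52.4 to 465, 388, 497 and 521 (3.13 ± 0.29). The phosphatases Dusp1 and Dusp2 rose by 2.66 and 5.64, and Cd274, the ligand of the inhibitory receptor PD-1, by 4.61. In controls 3 of the 11 NF-kB genes rose and 1 fell (median 0.56), and 10 of the 21 feedback genes rose and 1 fell (median 1.18). Without control LPS library 33 these were 5 and 1 (median 0.63), and 12 and 1 (median 1.65). The kB consensus was present in the promoters of 6 of the 8 NF-kB genes in the RefSeq table (75.0%), against 12.4% of tested genes with a promoter there.

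Cytokine genes rose in most families. Il1b stood at 15.4, 28.1 and 8.6 at steady state and at 1190, 1139, 1080 and 1806 after LPS (6.26 ± 0.55, adjusted p = 1.59e-06). Tnf was at 15.4, 43.6 and 22.8 and then at 742, 598, 438 and 534 (4.46 ± 0.53, adjusted p = 2.22e-05). Both groups were clearly separated for these classical products of LPS-treated macrophages. Of 13 interleukin and cytokine genes 7 rose and 1 fell. Il12b, the p40 subunit shared by interleukins 12 and 23, rose by 4.26, its relative Ebi3 by 1.46, and oncostatin M (Osm) by 2.17. Il16, a lymphocyte attractant, fell from 1234, 1196 and 1279 to 457, 252, 281 and 323. Of 20 TNF family ligands and receptors 9 rose and none fell. Cd40, the co-stimulatory receptor, was at 1.9, 14.1 and 2.9 and then at 365, 452, 419 and 1045, and Tnfsf9 rose by 4.82. Of 15 inflammasome and interleukin 1 pathway genes 5 rose. They include the LPS-sensing protease Casp4 (2.74), the decoy receptor Il1r2 (4.72), the adaptor Pycard (1.01) and Il18bp (2.19), which binds interleukin 18.

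Of 22 chemokine genes 15 rose and 1 fell, with a median log2 change of 2.62. Ccl22, a ligand of Ccr4, had the highest fold change. It went from 1, 3.5 and 3.8 to 292, 146, 183 and 1064, with library 38 far above the other LPS libraries (6.43 ± 0.62, adjusted p = 3.5e-06). Ccl12, a ligand of Ccr2, was at 137, 395 and 116 and then at 1051, 1534, 3152 and 2661. The interferon-inducible Cxcl9 was at 0, 2.1 and 1.9 and then at 132, 116, 142 and 166. Those groups did not overlap either. Cxcl16 rose by 2.93, and Ccr7, a receptor for homing to lymphoid tissue, by 4.39. The summed chemokine level was 1113 to 2315 at steady state and 6655, 9784, 12190 and 18480 in LPS libraries 35, 36, 37 and 38. In controls 15 of the 22 rose and 2 fell, with a median of 1.91, and 16 of 21 rose and 3 fell without library 33.

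Interferon-stimulated genes moved one way. Of 44 tested, 32 rose and none fell, with a median of 1.76. In controls 29 rose with a median of 2.00, and 35 with a median of 2.09 without LPS library 33. Isg15 stood at 25.1, 56.9 and 29.5 at steady state and at 185, 282, 329 and 498 after LPS (3.09 ± 0.40, adjusted p = 4.38e-05). Rtp4, an interferon-induced chaperone, went from 22.2, 38.6 and 30.5 to 124, 187, 331 and 640 (3.12 ± 0.51). Irf7, the factor that amplifies interferon production, was at 28, 82.2 and 27.6 and then at 273, 366, 495 and 628 (3.36 ± 0.50). In each of these genes library 38 was highest and library 35 lowest after LPS, and library 11b was highest at steady state. Xaf1, Isg20 and Slfn5 rose by 2.36, 2.57 and 3.38. Of 23 Irf, Stat and interferon receptor genes 8 rose and 1 fell, among the first Irf9 (1.52), Stat2 (1.45) and Stat3 (1.25). Of 10 genes of cytosolic nucleic acid sensing 7 rose and 2 fell. The DNA sensor cGAS (Mb21d1) rose by 1.45, the RNA sensors Ddx58 and Ifih1 by 1.68 and 1.78, the RNA editor Adar by 1.35 and the Z-nucleic acid sensor Zbp1 by 3.63. Of 14 interferon-gamma-type GTPases 4 rose, Gbp5 by 3.13 and Gbp2 by 3.91. Of the 32 interferon-stimulated genes that rose, 22 had a promoter in the RefSeq table. The ISRE core, as printed for Isg15, was held by 13 of those (59.1%), and by 15 of 31 (48.4%) over the whole list, risen or not. It was held by 6.45% of all genes that rose, 3.31% of those that fell and 3.83% of all tested genes. The list was made of known interferon-stimulated genes, so its high share is not a result of this comparison.

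The interferon and NF-kB lists differed in how they varied between the LPS libraries, as the bars of summed levels show. Library 38 was highest for 30 of the 32 interferon-stimulated genes that rose, and library 35 lowest for 26. Of the 8 NF-kB genes that rose, library 38 was highest for 1. Over all 1631 genes that rose, it was highest for 454. The summed interferon-stimulated level was 5279 in library 35 and 11620 in library 38, whereas the summed NF-kB level was 8279 and 7350. The highest LPS library exceeded the lowest by a median of 2.80-fold in the first list and 1.28-fold in the second, against 1.56-fold over all genes that rose. Library 38 is 1 of the 2 high-Xist libraries, and the other, 11b, had the highest steady-state interferon sum, 3571 against 2425 and 2703. The part of sex in these values was not tested. Without both libraries 29 of the 44 interferon-stimulated genes and 8 of the 11 NF-kB genes rose.

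**Figure D2:**
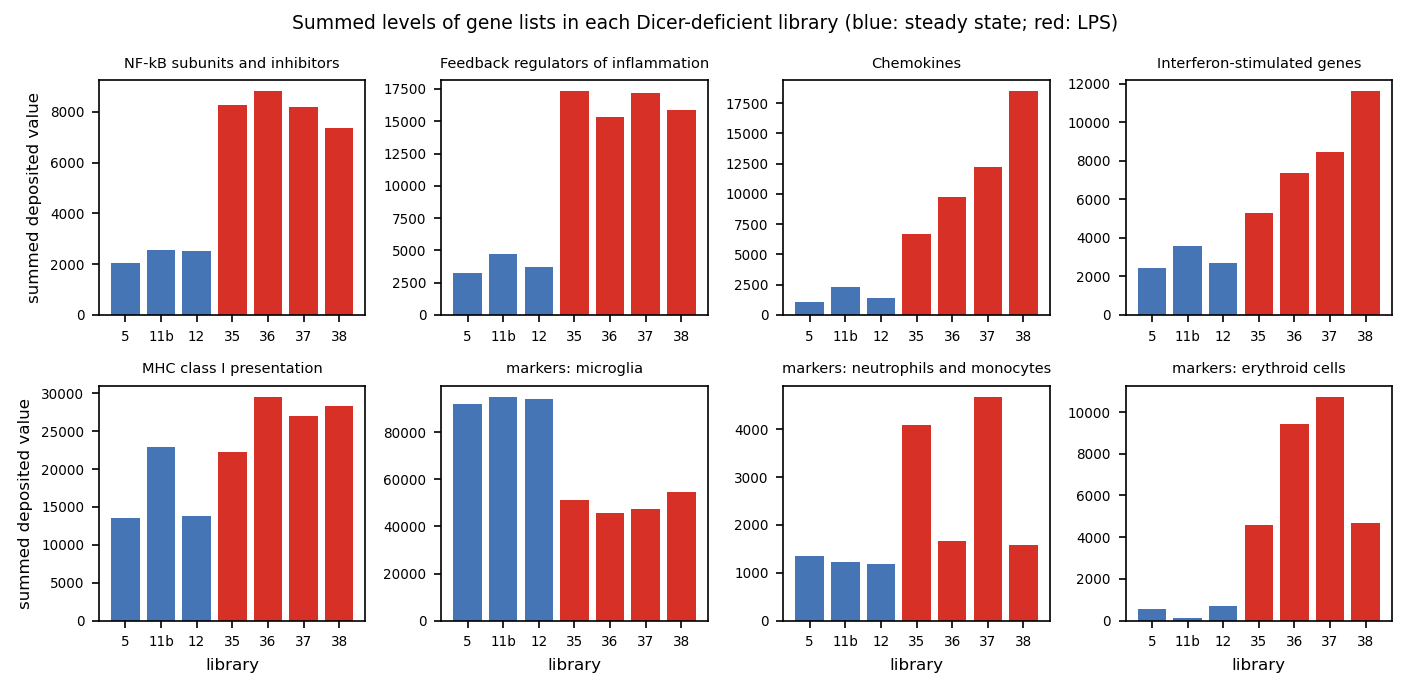
Summed levels of 8 gene lists, 1 bar per Dicer-deficient library, with steady state (5, 11b, 12) in blue and LPS (35 to 38) in red. NF-kB and feedback sums were similar in the 4 LPS libraries (7350 to 8811 for NF-kB), interferon and chemokine sums ranged more widely (5279 to 11620 for interferon-stimulated genes), and neutrophil and monocyte sums were high in libraries 35 and 37 (4100 and 4680).

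MHC class I presentation genes rose in part. Of 23 tested, 9 rose and none fell, with a median of 0.64, and in controls 6 rose, or 7 without LPS library 33. H2-K1, a classical class I heavy chain whose reads can be shared with its close relatives, was at 881, 2776 and 750 at steady state and at 3074, 4811, 4849 and 5984 after LPS (1.89 ± 0.40, adjusted p = 0.00199). Library 11b lay just under the lowest LPS library. The peptide transporter Tap1 rose by 1.48, the editor Tapbpl by 1.36 and Nlrc5, the transactivator of class I genes, by 3.64. All 9 were highest in library 38, and 8 rose without the 2 high-Xist libraries. Of 16 class II genes 3 rose and 2 fell, without a common direction and beside 12.2% higher and 12.8% lower over all genes. Without library 11b, 12, 36 or 38 only 2 rose and at most 1 fell. The invariant chain Cd74 went from 215, 174 and 188 to 1138, 1474, 1575 and 1945 (2.97 ± 0.29), and the co-stimulator Cd86 rose by 0.64. The peptide editor H2-DMb1 fell by 1.01, but the change did not pass without library 11b (-0.67, adjusted p = 0.109).

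Among antimicrobial and oxidative enzymes, 11 of 18 rose and 3 fell. Nos2, inducible nitric oxide synthase, was at 0 in all 3 steady-state libraries and at 10.2, 11.9, 7.1 and 12.6 after LPS. Ptgs2, cyclooxygenase 2, was likewise at 0 and then at 12, 16.9, 13 and 7.1, and the prostaglandin E synthase Ptges rose by 4.32. Control LPS libraries had Nos2 at 4.1, 0, 1.5 and 0, and the difference between the genotypes did not pass (limma adjusted p = 0.239). Gch1, which makes the tetrahydrobiopterin cofactor of nitric oxide synthases, rose by 3.17, and Cybb, the catalytic subunit of the phagocyte oxidase, by 2.97. Of 24 complement and phagocytic genes 9 rose and 3 fell, the latter a share near the 12.8% of all genes that fell. C3 was at 1, 4.9 and 0 and then at 45.4, 39, 41.4 and 38.3, and the C5a receptor C5ar1 rose by 3.90. Gas6, a bridging ligand for the uptake of dying cells, fell from 985, 1633 and 853 to 230, 117, 164 and 177 (-2.72 ± 0.44), and the scavenger receptor Scarb1 fell by 1.19. Of 24 genes known from disease-associated microglia 7 rose and 5 fell. Spp1, or osteopontin, was at 23.1, 30.2 and 35.2 and then at 3934, 2613, 1913 and 538 (5.91 ± 0.82), a wide range in which library 38 was lowest. Cst7 rose by 4.26 and Cd63 by 2.62, while the protease inhibitor Timp2 fell by 1.78.

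Genes of resting microglia fell. Of 33 homeostatic genes 19 fell and 2 rose, with a median of -0.93, close to the controls, where 18 fell and 1 rose with a median of -0.90 (22 and 1 with a median of -1.22 without LPS library 33). P2ry12, the ADP receptor of microglial processes, stood at 7656, 6438 and 7937 at steady state and at 737, 1088, 1287 and 1001 after LPS (-2.86 ± 0.44, adjusted p = 0.000176). Sall1, a transcription factor specific to microglia within the brain, was at 844, 717 and 671 and then at 157, 238, 202 and 223 (-1.87 ± 0.33). In both genes every LPS library was below every steady-state library. Rtn4rl1, a relative of the Nogo receptor, fell by 3.53, the endocytic adaptor Bin1 by 1.81 and the protease inhibitor Serpine2 by 1.27. Gpr84, a receptor for medium-chain fatty acids held on the same list, went the opposite way. It stood at 867, 1540 and 857 and then at 8155, 11396, 10465 and 10014 (3.25 ± 0.36, adjusted p = 1.12e-05). Of 26 identity transcription factors 9 fell and 6 rose: Hhex fell by 2.19 and Maf by 1.81, and Egr1, an immediate early gene, rose by 1.46. Of 25 genes of TGF-beta signalling, the pathway that maintains this identity, 5 rose and 6 fell, or 3 and at most 4 without library 5, 12 or 37. The receptor Tgfbr1 fell by 1.35 and Eng by 1.15, whereas the targets Id1 and Id2 rose by 4.77 and 3.56.

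The 12 lowest genes by the rule were Bank1, Dlgap1, Cbfa2t3, Tppp, Cyp27a1, Zdhhc14, Ebf3, Kcnk12, Tbx6, Garnl3, Angptl7 and Nbeal2. Bank1, a scaffold known from B cell receptor signalling, went from 323, 167 and 268 to 3.7, 5.1, 6.5 and 12.6 (-5.06 ± 0.69, adjusted p = 6.47e-05). Cbfa2t3, a transcriptional co-repressor, went from 575, 512 and 472 to 33.3, 33, 18.9 and 8.2 (-4.59 ± 0.88). Cyp27a1, a sterol hydroxylase that makes 27-hydroxycholesterol, went from 165, 110 and 184 to 8.3, 6.8, 3 and 9.8 (-4.33 ± 0.62). The rule that chose these 12 genes required groups without overlap. Dlgap1, a scaffold protein of synapses, was at 287, 169 and 256 at steady state and at 13, 0.8, 3.5 and 38.8 after LPS (-4.83 ± 1.07), and was at 150, 3.4 and 17.2 in steady-state controls.

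Metabolic genes moved in both directions. Of 26 glycolysis genes 10 rose and 2 fell, with 4 higher without steady-state library 12 and 5 without LPS library 37. The glucose transporter Slc2a1 was at 119, 184 and 110 and then at 1678, 1586, 1730 and 1304 (3.54 ± 0.38, adjusted p = 9.66e-06), and Pfkfb3, which makes the activator of phosphofructokinase, was at 116, 157 and 102 and then at 1306, 2298, 1841 and 1547 (3.79 ± 0.40). Both were separated between the groups, and Ldha rose by 1.66. Of 33 nuclear oxidative phosphorylation genes 5 rose and none fell, a share of 5 in 33 that is close to the 12.2% of all genes, with 1 call left without library 12 or 38, 2 without 5 and 3 without 35 or 37. Of 26 cholesterol and lipoprotein genes 4 rose and 5 fell, and the 4 of 26 is near the 12.2% of all genes that rose. Apoe, the main brain lipoprotein, fell from 692, 536 and 642 to 311, 223, 158 and 231 (-1.46 ± 0.24), and the sterol exporter Abcg1 fell by 1.86. Lysosomal genes fell more often than they rose, with 13 of 33 lower and 2 higher, among the former the acid lipase Lipa (-1.40), Naglu (-1.24), Ctsh (-0.88) and Tpp1 (-0.82). Of 25 proteasome genes 9 rose and none fell, for example Psmc5 by 1.38 and Psmd14 by 1.15. Without steady-state library 5 or 12 the lysosomal calls dropped to 8 or 9 and the proteasome calls to 4 or 5. Of 55 ribosomal protein genes 8 rose, Rpl4 by 1.00, and 1 fell; 2 to 4 rose when any library but 11b was left out. The 8 of 55 is also a share near the 12.2% of all genes. That 1 was Rpl26, listed at 239, 273 and 248 at steady state and at 11.1, 243, 14.2 and 17 after LPS, so library 36 overlapped the steady state. Reads of ribosomal protein genes can be shared with near-identical pseudogenes, and the fall did not pass with edgeR (adjusted p = 0.0692) or DESeq2 (adjusted p = 0.129). Without library 36 the Rpl26 change was -4.09 (limma adjusted p = 3.15e-07), and in Dicer-deficient hippocampus it was -3.86 (limma adjusted p = 0.000289).

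Stress and cell cycle lists gave few one-way results. Of 26 immediate early genes, a set also raised by tissue dissociation, 11 rose and none fell. Ier3 was at 60.7, 202 and 72.3 and then at 4436, 3675, 3912 and 3571 (5.32 ± 0.60), and Junb rose by 1.40. Of 27 genes of the unfolded protein and heat shock responses 4 rose, with Atf6 by 1.83 and Xbp1 by 0.97, and 3 fell (3 and 1 without library 5 or 12). Both counts are shares near those of all genes, 12.2% higher and 12.8% lower. Of 24 p53 targets 5 rose and 5 fell, Cdkn1a by 2.75 and Gadd45b by 4.86 upwards and Sesn1 by -1.44 and Bbc3 by -1.71 downwards. Of 24 replication genes 1 rose (Tyms, 1.29) and 1 fell (Mcm7, -1.07), and of 25 mitosis genes 1 fell (Cenpe, -1.96), which edgeR and DESeq2 did not call. Of 13 purinergic genes 4 rose and 4 fell. P2ry2, which senses ATP and UTP, went from 2.9, 17.6 and 3.8 to 283, 443, 413 and 204 (5.51 ± 0.57), and the adenosine receptors Adora2b and Adora3 rose by 3.74 and 1.10. The ATP-gated channel P2rx7 fell by 1.92. Of 30 adhesion and guidance genes 10 rose and 9 fell: the integrin Itgal rose by 4.07 and the neuropilin Nrp2 by 1.57, and the integrin Itga6 fell by 3.21.

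**Figure D3:**
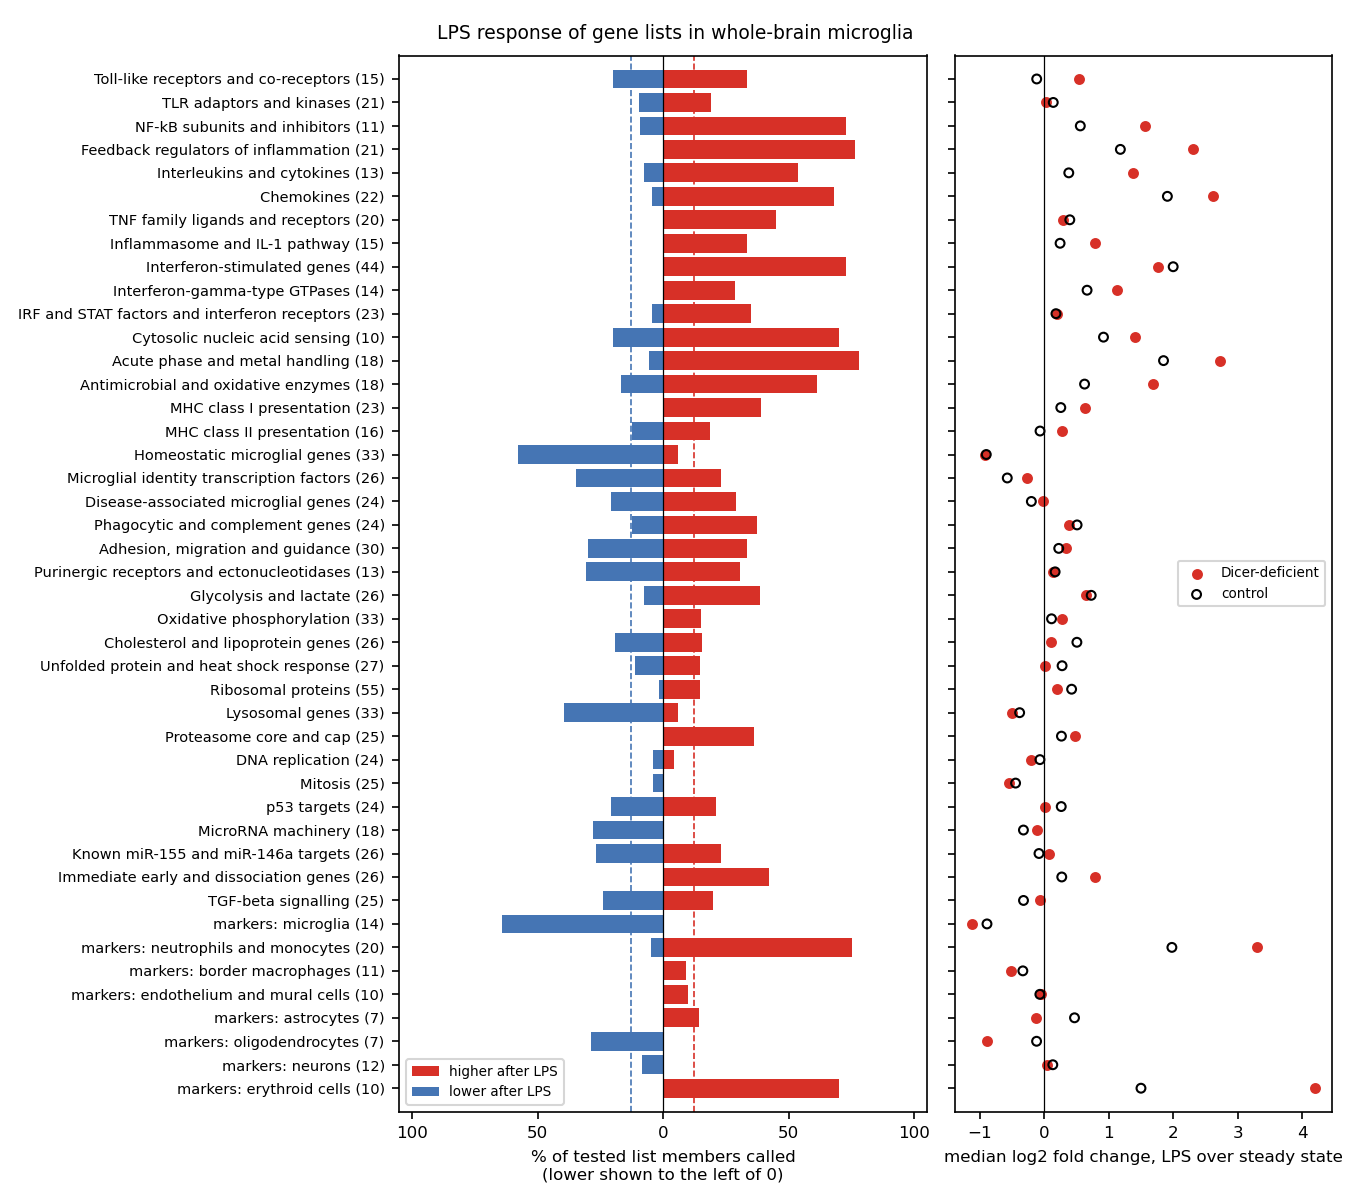
Left, the percentage of each list's tested genes (number in brackets) called higher (red) or lower (blue, left of 0) in Dicer-deficient microglia after LPS, with dashed lines at the percentages of all tested genes (12.2% and 12.8%). Right, the median log2 fold change of each list in Dicer-deficient (filled) and control (open) microglia: the Dicer-deficient medians were 1.57 for NF-kB genes, 2.31 for feedback regulators and -0.93 for homeostatic genes.

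Within the microRNA machinery, 5 of 18 genes fell and none rose. Ago1, an Argonaute protein, was at 280, 280 and 277 at steady state and at 69.4, 82.2, 89.9 and 96.3 after LPS (-1.72 ± 0.29, adjusted p = 0.000337). Ago4 went from 108, 70.3 and 99.9 to 4.6, 8.5, 4.7 and 7.1 (-3.71 ± 0.64), with no overlap in either gene. Zcchc11, which adds uridines to microRNA precursors, fell by 1.93, the silencing scaffold Tnrc6b by 1.35 and the Dicer partner Prkra by 1.20. In controls 4 of the 18 fell, and 5 without LPS library 33. Of 26 known targets of miR-155 and miR-146a, whose seeds are printed above, 6 rose and 7 fell, and in controls 3 rose and 3 fell (3 and 5 without library 33). Relb and Ikbke rose (2.72 and 6.41), as did the adaptor Sla (1.48), whereas Numb and Ets1 fell by 1.46 and 1.67. The median of these targets was 0.07, against -0.04 over all tested genes.

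The sort gate excludes Ly6C+ and Ly6G+ cells, and markers of other cell types were examined in the same libraries. Of 14 microglial markers 9 fell and none rose, and their summed level was 92180 to 95120 at steady state and 45670 to 54460 after LPS. Of 20 neutrophil and monocyte markers 15 rose and 1 fell (median 3.30), and 11 rose and 2 fell in controls (median 1.98, with the same counts of 18 tested without LPS library 33). Their sum was 1173 to 1352 at steady state and 4100, 1664, 4680 and 1580 after LPS, and Ly6g was at 0 in all 7 libraries. In controls the sum was 1010 to 1172 at steady state. It was 784.3, 960, 652.6 and 4636 in control LPS libraries 17, 31, 32 and 33. Dicer-deficient steady-state library 5 had a sum of 1352 with Ngp at 3.9 and Cxcr2 at 0, so other members carried it. S100a9, a granulocyte calcium-binding protein, was at 1361 and 1431 in LPS libraries 35 and 37 but at 98.3 and 256 in 36 and 38, overlapping the steady-state values of 1, 109 and 2.9. Ngp, a neutrophil granule protein, and S100a8, the partner of S100a9, were uneven in the same way, at 551, 61, 925 and 177 and at 256, 39.8, 323 and 61.3. Over the 15 markers that rose, the highest LPS library exceeded the lowest by a median of 6.15-fold, against 1.56-fold over all genes that rose. Fn1, Ly6c2 and Plac8 varied less. Fn1, fibronectin, went from 1, 2.8 and 3.8 to 372, 434, 404 and 218, Ly6c2 was at 35.2 to 78.8 after LPS and Plac8 at 50 to 85.7. All of them stand beside the rises of acute phase, antimicrobial and cytokine genes, and their part in those rises was not tested. Of 10 erythroid genes 7 rose (median 4.20), their sum going from 124.3 to 684.4 at steady state to 4586 to 10730 after LPS, and none rose in controls, whose sums ran from 562 to 3624 at steady state and 456 to 18740 after LPS. Haemoglobin genes such as Hba-a1 and Hba-a2 are near-identical copies and were given almost the same values. The border macrophage markers Lyve1 and Cd209f were at 0 throughout, while the sum of that list was 1079 to 1303 at steady state and 740.5 to 1440 after LPS. Of these markers 1 of 11 rose, a share near the 12.2% of all genes. That 1 was F13a1, at most 11 in the 7 Dicer-deficient libraries. It is on the neutrophil and monocyte list too and is counted among the 15 that rose there. Its call was lost under 8 of 15 alternatives, for example without library 11b (limma adjusted p = 0.126). The T and B cell markers Cd3e, Cd8a, Ms4a1 and Cd79a, the endothelial Cldn5 and the astrocytic Aqp4 were at 0 in all 7 libraries. Other endothelial and astrocytic genes were present. The endothelial and mural sum was 1209 to 1432 at steady state and 1313 to 1728 after LPS. Of 10 such genes 1 rose, Ly6a (2.83), a share near the 12.2% of all genes. The astrocyte sum was 464.4 to 869.1 and then 1133 to 2077. Slc1a3 was the astrocyte-list gene that rose (1.23), and of the oligodendrocyte list Cnp and Mbp fell, with 1 call left when any library but 12 was left out.

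In controls 946 genes rose and 951 fell, 7.05% and 7.08% of those tested. Of the 1631 genes that rose in Dicer-deficient microglia 687 also rose in controls (42.1% of the former and 72.6% of the latter), and of the 1718 that fell 669 also fell (38.9% and 70.3%). Without control LPS library 33, 1635 genes rose and 1753 fell in controls, and 989 were shared among the risen genes (60.6% and 60.5%). A test of the difference between the responses called 23 genes (0.171%), 17 with a higher change in Dicer-deficient cells (0.127%) and 6 with a lower one (0.0447%), and 1258 genes had an unadjusted p under 0.05. Without library 33 the test called 92 genes, 68 higher and 24 lower, with all 23 among them. Across 21 alternatives 11 of the 23 kept an adjusted p under 0.05 in every one, and none changed sign. Without both high-Xist libraries, which are both Dicer-deficient, 17 of the 23 kept their call. The part of sex in the difference was not tested.

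**Figure D4:**
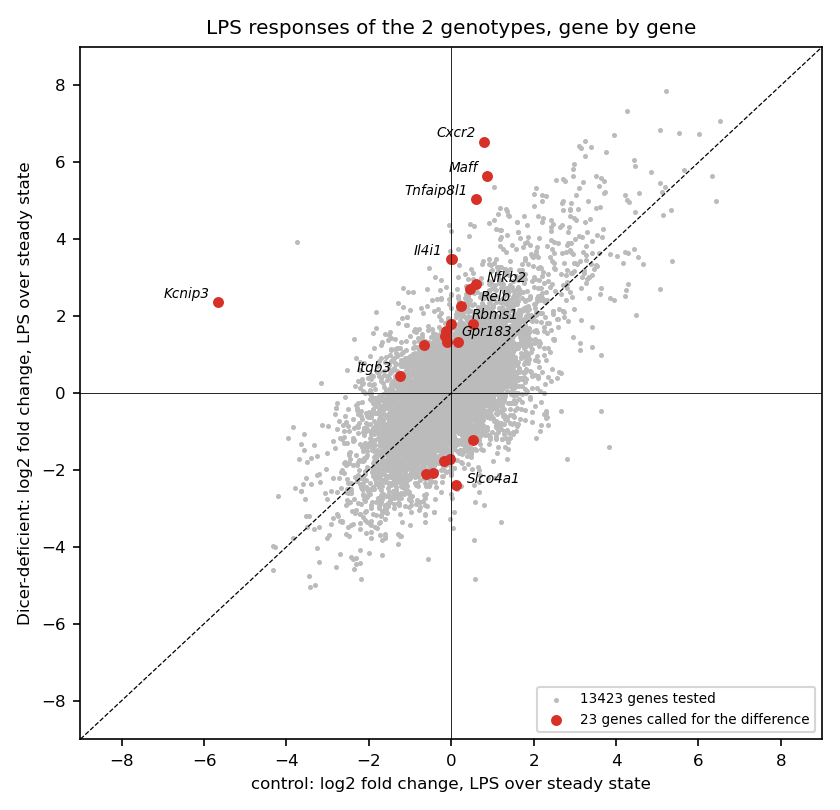
Log2 fold change after LPS of each of 13423 tested genes in controls (horizontal) and Dicer-deficient microglia (vertical), with the line of equal change dashed and the 23 genes called for the difference in red. Most genes changed in the same direction in both (92.0% of those that rose in Dicer-deficient cells), and Cxcr2, Maff, Nfkb2 and Relb lie well above the line.

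Several of the 23 belong to the NF-kB pathway. Nfkb2, at 884 to 1014 in Dicer-deficient LPS libraries, was at 133, 188 and 202 in steady-state controls and at 328, 282, 325 and 158 after LPS, and the difference of the 2 responses was 2.22 (adjusted p = 0.00487). The control LPS values lay below every Dicer-deficient LPS value. Relb was at 136, 134, 176 and 169 in control LPS libraries (difference 2.26, adjusted p = 0.0155). Tnip1 went from 108, 134 and 127 to 325, 264, 288 and 369 in Dicer-deficient cells, and was at 170, 215 and 190 and then at 172, 179, 191 and 168 in controls (1.43, adjusted p = 0.0155). Nfkbie went from 63.6, 79.4 and 76.1 to 273, 197, 186 and 174, against 117, 156 and 139 and then 106, 112, 124 and 156 in controls (1.63, adjusted p = 0.0277). For both inhibitors the control groups overlapped while the Dicer-deficient groups did not. Icam1, the leukocyte adhesion ligand, was at 1964 to 2494 in Dicer-deficient and 711 to 812 in control LPS libraries (1.27, adjusted p = 0.0369). Among these genes only Nfkb2 passed under all 21 alternatives: the difference was not called for Relb in 2 of them, Tnip1 in 3, Nfkbie in 7 and Icam1 in 12. Without library 33 the difference was also called for Nfkbiz and Tnfaip3. Of the 17 genes with a higher change 14 had a promoter in RefSeq, and 6 of these genes held the kB consensus (42.9%). They were Nfkb2, Tnip1, Nfkbie, Maff, Tnfaip8l1 and Kcnip3. A gene with more than 1 start site was counted once if any of its promoters held a match. By the same count the consensus was present for 1 of 5 genes with a lower change, 14.7% of all genes that rose after LPS and 12.4% of all tested genes. No promoter of the 14 genes held the ISRE core.

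Other genes in this set have varied roles. Cxcr2, the receptor for Cxcl1 and related chemokines, was at 0, 0.7 and 4.8 at steady state and at 295, 230, 172 and 132 after LPS in Dicer-deficient cells, and at 7.2, 11.2, 13.2 and 5.9 after LPS in controls (5.75, adjusted p = 0.00389). Cxcr2 is on the neutrophil marker list too. S100a9 stood at 1361, 98.3, 1431 and 256 in the same Dicer-deficient LPS libraries and at 41.3, 293, 94.1 and 1534 in the control ones, and the part of neutrophil RNA in the Cxcr2 values was not tested. Il4i1, a secreted amino acid oxidase, went from 134, 89.9 and 84.7 to 822, 930, 1083 and 2063, against 52.6 to 156 in control LPS libraries (3.50). Gm21948 carried almost the same values, so reads may have been counted for both. Maff, a small Maf transcription factor, was at 1, 0 and 0 and then at 71.3, 59.3, 54.4 and 62.3, against 9.9 to 17.6 in control LPS libraries (4.77). Gpr183, the oxysterol receptor, had Dicer-deficient steady-state levels below every control level. It was at 401, 249 and 433 and then at 1247, 1298, 1329 and 1048 in Dicer-deficient cells, and at 972, 927 and 1080 and then at 1210, 1021, 936 and 826 in controls (1.80, adjusted p = 0.00688). Rbms1, an RNA-binding protein, and Ninj1, which ruptures membranes in lytic cell death, had differences of 2.02 and 1.75. Kcnip3, a calcium-binding transcriptional repressor, was at 79.4, 79.1 and 86.1 in steady-state controls and at 6.2, 0, 0 and 0 after LPS, while Dicer-deficient cells had 1, 0 and 2.9 and then 29.6, 36.4, 1.2 and 3.3. Itgb3, the integrin beta 3 chain, fell in controls and did not pass in Dicer-deficient cells (0.44), and its difference was not called in 11 of the alternatives.

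The 6 genes with a lower change were Camk1d, Slco4a1, Tmem37, Tbc1d5, Fkbp4 and Samd1. Camk1d, a calmodulin-dependent kinase, went from 427, 442 and 460 to 116, 100, 115 and 89.1 in Dicer-deficient cells, and from 374, 290 and 337 to 215, 237, 230 and 301 in controls (-1.63, adjusted p = 0.0052). Slco4a1, an organic anion transporter, went from 202, 140 and 189 to 40.7, 28, 24.2 and 39.9, and was at 132 to 302 in control LPS libraries (-2.51, adjusted p = 0.00548). The Dicer-deficient LPS levels lay below every control level for both. Tbc1d5 and Tmem37 were higher at steady state in Dicer-deficient cells, at 382 to 568 against 130 to 156, and at 994 to 1211 against 565 to 624. Fkbp4 was higher at steady state too, at 475 to 482 against 256 to 314 in controls. The difference was not called in 10 of the alternatives for Tmem37 and Samd1, in 11 for Tbc1d5 and in 12 for Fkbp4. Plcd1 and Gpd1l, which came next, did not pass (adjusted p = 0.0595 for each).

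**Figure D5:**
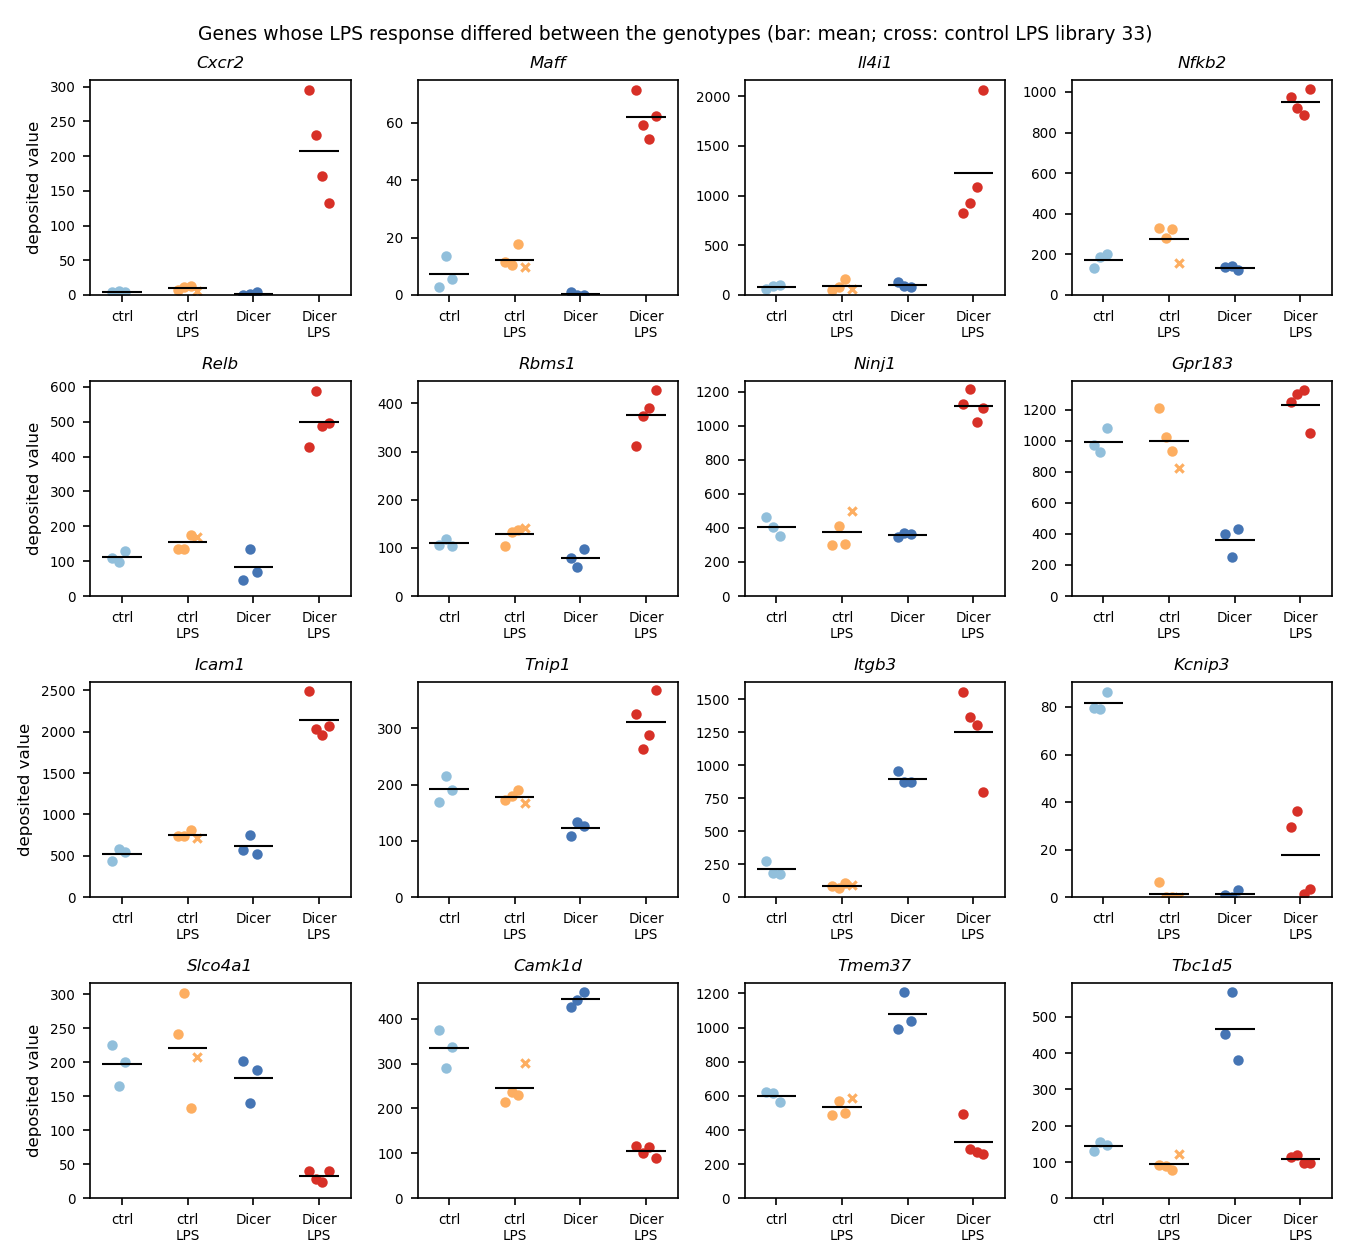
Levels of 16 genes whose response differed between the genotypes, in control (pale blue, orange) and Dicer-deficient (dark blue, red) libraries, with 1 point per library, bars at group means and control LPS library 33 as a cross. Cxcr2, Maff, Nfkb2 and Relb rose in Dicer-deficient cells to levels above every control library, and Slco4a1 and Camk1d fell below every control library.

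In hippocampal microglia of the same genotype, 478 of 12366 genes rose and 570 fell after LPS (3.87% and 4.61%), with 2 LPS and 3 steady-state libraries. Of the genes tested in both, 404 of the 1609 that rose in whole brain also rose there (25.1%, and 84.7% of the hippocampal calls), and 91.9% of the 1609 had the same sign. The number 5 labels a steady-state library in both tissues, and whether they share a mouse is not given in the sources used here. Il1b rose by 5.99, Tnf by 4.58 and Nfkb2 by 3.00 in the hippocampus, and P2ry12 fell by 3.16. Of the 17 genes with a higher change in Dicer-deficient whole brain, 12 rose in Dicer-deficient hippocampus and all 17 had a positive change, among them Cxcr2 (5.89), Il4i1 (3.60) and Gpr183 (1.61). All 6 with a lower change were negative there and 4 fell. Of the 17, 15 had been called higher after LPS in Dicer-deficient whole brain, and all 6 had been called lower. These signs come from 1 genotype, and the difference between the genotypes was not tested in the hippocampus. Interferon-stimulated genes gave other numbers: 2 of 44 rose, a share near the 3.87% of all genes there, with a median of 0.54. In whole brain 32 rose, with a median of 1.76. The call counts rest on 2 LPS libraries in the hippocampus and 4 in whole brain. Isg15 changed by 1.86 (adjusted p = 0.0653) and Rtp4 by 0.34 (adjusted p = 0.839). Acute phase genes numbered 7 of 18 higher and 2 lower, and Lcn2 changed by 1.43 against 7.08 in whole brain. Neutrophil and monocyte markers went the other way in the hippocampus, 7 of 18 lower and 1 higher, and their part in the acute phase values was not tested. The difference between the tissues was not tested.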

How the data were processed

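RNA-seq levels of sorted microglia were taken from the table the authors deposited for the whole-brain LPS experiment (14 libraries) and from the one for the hippocampus (9 libraries). The unit is signal: per the file headers and the values themselves, deposited values are read counts multiplied by 1 factor per library, and at least 99.969% of them divided into whole reads within 0.1 read. In 5 of the 14 whole-brain libraries no gene stood at exactly 1 read, so single reads may be listed as 0 there. Oligo(dT) capture is given per the labels' protocols. Per the submitters' processing notes the tools include bcl2fastq, HISAT 0.1.5, SAMtools, HOMER and DESeq2 with mm9; their roles, the annotation and the handling of molecular identifiers are not given in the sources used here.

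Genes reaching 1 in no fewer than 3 whole-brain libraries (2 hippocampal) were tested with limma 3.58.1 (R 4.3.3, empirical Bayes with a trend) on log2(value + 1), with 1 mean per group over all libraries of a table and Benjamini-Hochberg adjustment, called at an adjusted p under 0.05. The difference of the responses is the interaction term of that fit. Alternatives were edgeR 4.0.16 (TMM or RLE scaling) and DESeq2 1.42.0 on recovered reads, pseudocounts of 0.1 and 5, no filter, a fit of the compared groups only, and each library left out. Leaving out both high-Xist libraries was chosen after seeing the data. The fits were tested on simulated data. The members and the gene lists were chosen with earlier results of these data known.

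Named genes were Dicer1, the 12 highest and 12 lowest called fold changes without overlap and at or above the median level, up to 5 genes at 0 in 1 group, the 5 smallest p-values of each list, and the 8 smallest of the difference in each direction. Unnamed models were left out. Kcnip3, Maff, Tnfaip8l1, Plekhg2, Gm21948, Itgb3, Nfkbie, Icam1 (difference), Nek6, S100a8, S100a9, Ngp and the genes given at 0 were named after their values were seen. Promoters and microRNAs are from RefSeq tables (GRCm38.p6) matched by symbol, with 10152 of 13423 tested genes matched; no coordinate of the authors' build was used.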

Additional observations from a re-analysis of the deposited data

Results flagged for a closer look

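A set of 158 genes, which does not hold every gene named above, was looked at for a library apart. In 12 of them 1 of the 4 Dicer-deficient LPS libraries lay far from the other 3 by Dixon's criterion, which chance meets in about 1 in 20 groups. Library 38 was high for Il1b (1806), Ccl22 (1064) and Cd40 (1045), genes of cytokine signalling, and low for Myd88 (527) and Timp2 (259). Library 36 was low for Adar (295) and Ets1 (66.9) and high for Rpl26 (243) and Plekhg2 (72.9). Library 37 was high for Osm (97.6), and library 35 for Zdhhc14 (25.0) and Tmem37 (495).

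For 23 genes the response to LPS differed between Dicer-deficient and control microglia by the interaction test. The change was higher in Dicer-deficient cells, on the log2 scale, for Kcnip3 (8.02), Cxcr2 (5.75), Maff (4.77), Tnfaip8l1 (4.45), Il4i1 (3.50), Gm21948 (3.48), Relb (2.26), Nfkb2 (2.22), Rbms1 (2.02), Plekhg2 (1.93), Gpr183 (1.80), Ninj1 (1.75), Itgb3 (1.69), Nfkbie (1.63), Tnip1 (1.43), Icam1 (1.27) and the kinase Nek6 (1.16). It was lower for Slco4a1 (-2.51), the co-chaperone Fkbp4 (-1.75), Samd1 (-1.70), Camk1d (-1.63), Tmem37 (-1.60) and Tbc1d5 (-1.49).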

How the results depend on the processing

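The 3349 calls of the Dicer-deficient whole-brain response became 3160 to 3627 under the alternatives that kept all 7 libraries, 2989 without both high-Xist libraries, and 2351 (without steady-state library 5) to 3466 (without 11b) when 1 library was left out. A set of genes was followed one by one through the 15 alternatives. Of its 155 called genes 150 were called under all of them, and F13a1, H2-DMb1, Irak3, Ngp and Rpl26 were not. The set does not hold every gene named above. Cenpe, for example, was outside it, and edgeR and DESeq2 did not call that gene. The control response gave 1897 calls, 1048 with only the compared groups fitted, and 872 (without steady-state library 9) to 3388 (without LPS library 33) when 1 library was left out. Its share of higher calls went from 49.9% to 61.0% with DESeq2, 62.1% with edgeR and RLE scaling and 63.4% with TMM. The difference between the responses gave 23 calls, 52 with a pseudocount of 5, 164 with DESeq2, 21 to 24 with edgeR, 33 without the high-Xist libraries, and 13 (without steady-state control 9) to 92 (without control LPS library 33) when 1 was left out. Cxcr2, Maff, Il4i1, Gm21948, Rbms1, Nfkb2, Ninj1, Gpr183, Kcnip3, Camk1d and Slco4a1 were called in all 21 settings; the other 12 lost their call in 2 (Relb) to 16 (Tnfaip8l1). The hippocampal response gave 1048 calls and 418 (without LPS library 18) to 854 when 1 was left out. Fewer samples are tested in these settings, and otherwise the cause of the changes was not tested. No direction reversed. No paired analysis was possible because the LPS and steady-state libraries share no replicate number. Levels of a few units rest on single reads at these depths.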
